A study of Rattus norvegicus with 16 samples.

Results

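The interaction of anesthetic and sepsis is the difference between 2 differences. For each gene, the change from control to sepsis under propofol was subtracted from the change from control to sepsis under isoflurane, so a positive value means that the gene went up more, or down less, under isoflurane. All 16 liver RNA libraries of the series entered the comparison, and of 17055 gene symbols 10621 had enough reads to be tested. The libraries came from 48 male Sprague-Dawley rats 10 weeks old, 3 rats pooled per library and 4 libraries per group. Rats of the Isoflurane-Sepsis group (libraries 1 to 4) breathed isoflurane and underwent cecal ligation and puncture, an operation in which gut content leaks into the abdomen and causes polymicrobial sepsis, while rats of the isoflurane control group (libraries 5 to 8) breathed isoflurane and had a sham celiotomy only. Rats of the Propofol-Sepsis group (libraries 9 to 12) and of the propofol control group (libraries 13 to 16) had the same operations under propofol infused after induction with ketamine and xylazine. Hence the propofol arm carried 2 further drugs that the isoflurane arm did not, in sepsis and in control rats alike. All rats breathed 100% oxygen, and livers were taken 8 h after the celiotomy. No rats without anesthesia and surgery were included, so a control level is the level under an anesthetic and a sham operation.

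In sepsis the liver turns from metabolism towards defense. Hepatocytes secrete acute-phase proteins and cut back fatty acid oxidation, and Kupffer cells and incoming phagocytes release cytokines. Oxidants and heme are met by the transcription factor NRF2, unfolded protein and amino acid shortage by the integrated stress response, and damaged DNA by p53. A gene can take part in an interaction in several ways, for example because sepsis moved it only under isoflurane, or because the control groups already differed and sepsis brought them together.

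Before the results, 3 features of the libraries need to be stated. Library 10, from Propofol-Sepsis, held transcripts of brain. In CPM, which scales the reads of every library to the same total, 33 brain markers summed to 578 CPM in it and to between 19.0 and 51.2 CPM in the other 15 libraries. The Isoflurane-Sepsis libraries lay further from their group mean than those of the control groups, with a root mean square log2 deviation over genes of 0.237 to 0.357, against 0.114 to 0.202 over the 8 control libraries, and library 10 reached 0.370. On the first principal component library 1 lay nearest to the controls among the Isoflurane-Sepsis libraries (-30.0, others -38.5 to -58.0). The deposited files of isoflurane and of propofol libraries carry different codes in their names, so a technical difference between the sets and the anesthetic cannot be told apart. An offset shared by the sepsis and control libraries of an anesthetic would cancel in the interaction and in each sepsis response, but not in a difference between anesthetics at 1 level.

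With edgeR's quasi-likelihood test, 289 of 10621 genes (2.72%) had an interaction with an adjusted p below 0.05, hereafter the called genes. In 176 of them (1.66% of genes tested) the value was higher under isoflurane, with a median log2 interaction of 0.92, and in 113 (1.06%) it was lower, with a median of -0.85. The median over all genes tested was -0.02. For comparison, sepsis against control was called for 54.4% of genes under isoflurane and 38.6% under propofol. The number of called genes rested strongly on single libraries. It was 1615 without library 1, 398 without library 10 and 374 without library 4, and between 54 (without library 12) and 250 (without library 16) when any other library was left out. DESeq2 called 847 genes and limma-voom 227. Of the 289 genes, the number still called with a library left out ran from 54 (without library 12) to all 289 (without library 1), and was 259 without library 10. In every one of the 16 fits 45 genes were called, 25 higher and 20 lower.

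**Figure D1:**
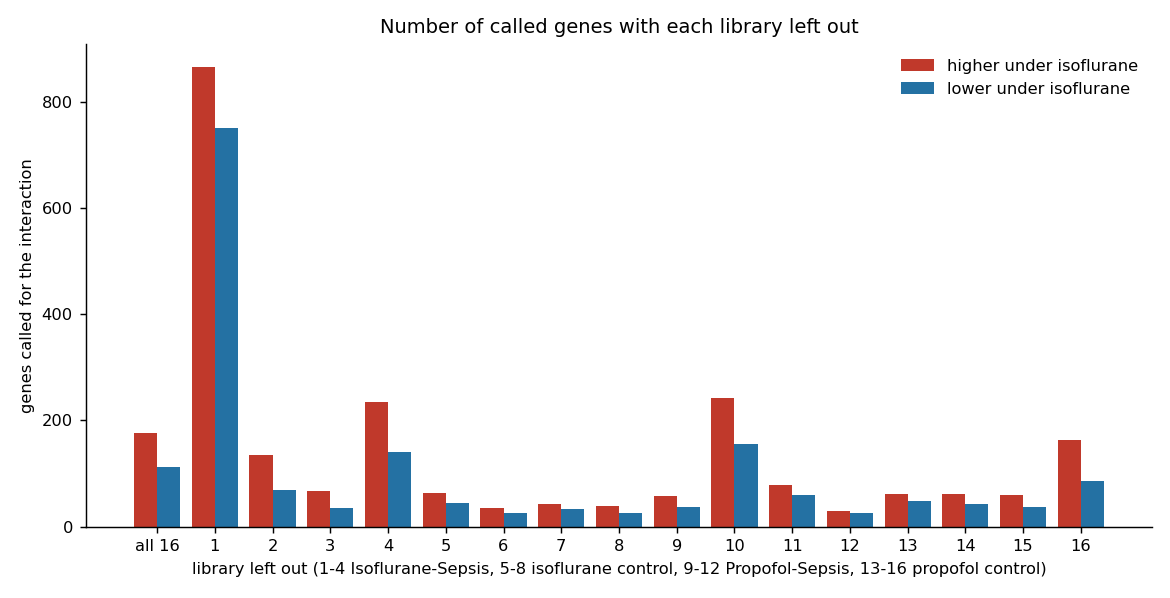
Number of genes called for the interaction (y axis) with all 16 libraries and with each library left out in turn (x axis), higher under isoflurane in red and lower in blue. Leaving out library 1 gave 865 higher and 750 lower genes, and leaving out library 12 gave 29 and 25.

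Of the 176 genes higher under isoflurane, 161 rose in value from control to sepsis under isoflurane, while under propofol 107 fell and 69 rose in value. The responses pointed in opposite directions in 92 genes, in the same direction but with more change under isoflurane in 69, and in the same direction with more change under propofol in 15. Counting only responses called on their own, 82 of the 176 genes responded under isoflurane only, 37 under propofol only, 30 in both in the same direction and 27 in both in opposite directions. Of the 113 genes lower under isoflurane, 91 fell in value under isoflurane, while under propofol 65 rose and 48 fell in value. Responses were opposite in 43 of them, in the same direction and larger under isoflurane in 48, and larger under propofol in 22. By called responses, 39 of the 113 responded under isoflurane only, 22 under propofol only, 40 in both in the same direction and 12 in both in opposite directions. Over all 10621 genes tested, 5349 rose and 5272 fell in value under isoflurane, and 5416 rose and 5205 fell under propofol. Both sets were chosen by the difference of the 2 responses, so these signs and classes describe the sets and test nothing.

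**Figure D2:**
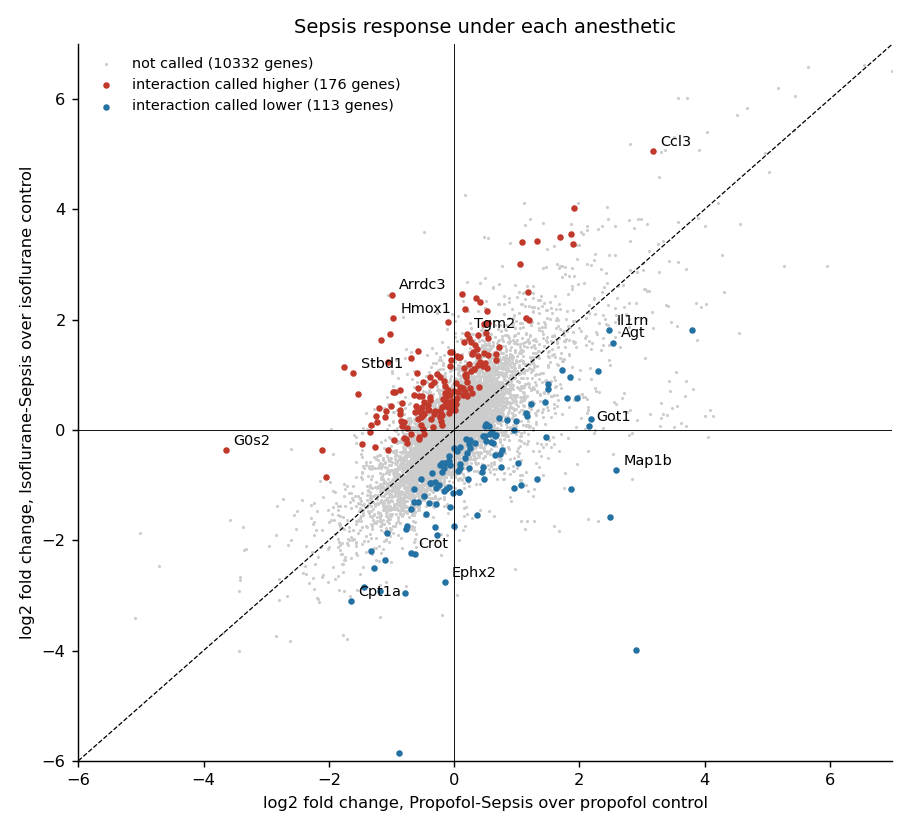
Log2 fold change from control to sepsis under propofol (x axis) and under isoflurane (y axis) for 10621 genes, with the 176 genes called higher in red and the 113 called lower in blue. By the choice of the genes, red ones lie above the dashed line of equal response and blue ones below it. Many lie in the quadrants where the responses have opposite signs, which describes the chosen genes only.

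When the 289 genes were sorted by known role, after their values had been seen, the 176 held 19 genes of RNA processing, translation and chromatin, 18 genes of white blood cells, 16 immediate-early genes and transcription factors, 11 of cytoskeleton and adhesion, 10 of cytokines, chemokines and their signaling, 9 of heme, thiol and xenobiotic defense, 8 interferon-stimulated genes and interferon factors, 8 of cell death and the inflammasome, 5 p53 targets, 4 of antigen presentation and 3 of the integrated stress response, and 36 were not sorted. Such numbers were not compared with those of all genes tested. The 113 genes lower under isoflurane held no gene of white blood cells, interferon, p53, antigen presentation or the integrated stress response. They held 12 signaling kinases, phosphatases and receptors (6 in the higher set) and 10 genes of glycosylation, GPI anchors and the secretory pathway (2 in the higher set). There were 9 of amino acid, one-carbon and nicotinamide metabolism (1 higher), 8 of RNA processing, translation and chromatin (19 higher) and 7 of fatty acid oxidation and peroxisomes (1 higher). Further ones were 5 solute and lipid transporters (1 higher), 4 of cytokines, chemokines and their signaling (10 higher) and 3 of cytoskeleton and adhesion (11 higher). The 5 genes of sterol and fatty acid synthesis and 2 genes for plasma proteins were called lower only. In the lower set 39 were not sorted, and several groups had genes in both directions. The gene lists used below were written from known roles, overlap in part, and are described by counts and medians beside those of all genes tested. Each count of called members is to be read beside the 1.66% of all genes tested that were called higher and the 1.06% called lower. Genes were named by a fixed rule on adjusted p, size, level and list, and 21 more, Gclc, Nfe2l2, Txnrd1, Ddit3, Trib3, Mdm2, Plk2, Phlda3, Ccng1, Cflar, RT1-Ba, RT1-Da, Ccl3, Cebpa, Stbd1, Cpt1a, Hmgcs1, Gpt2, Mat1a, Cbs and Agt, were chosen for description after their values were seen, as were members named without values.

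**Figure D3:**
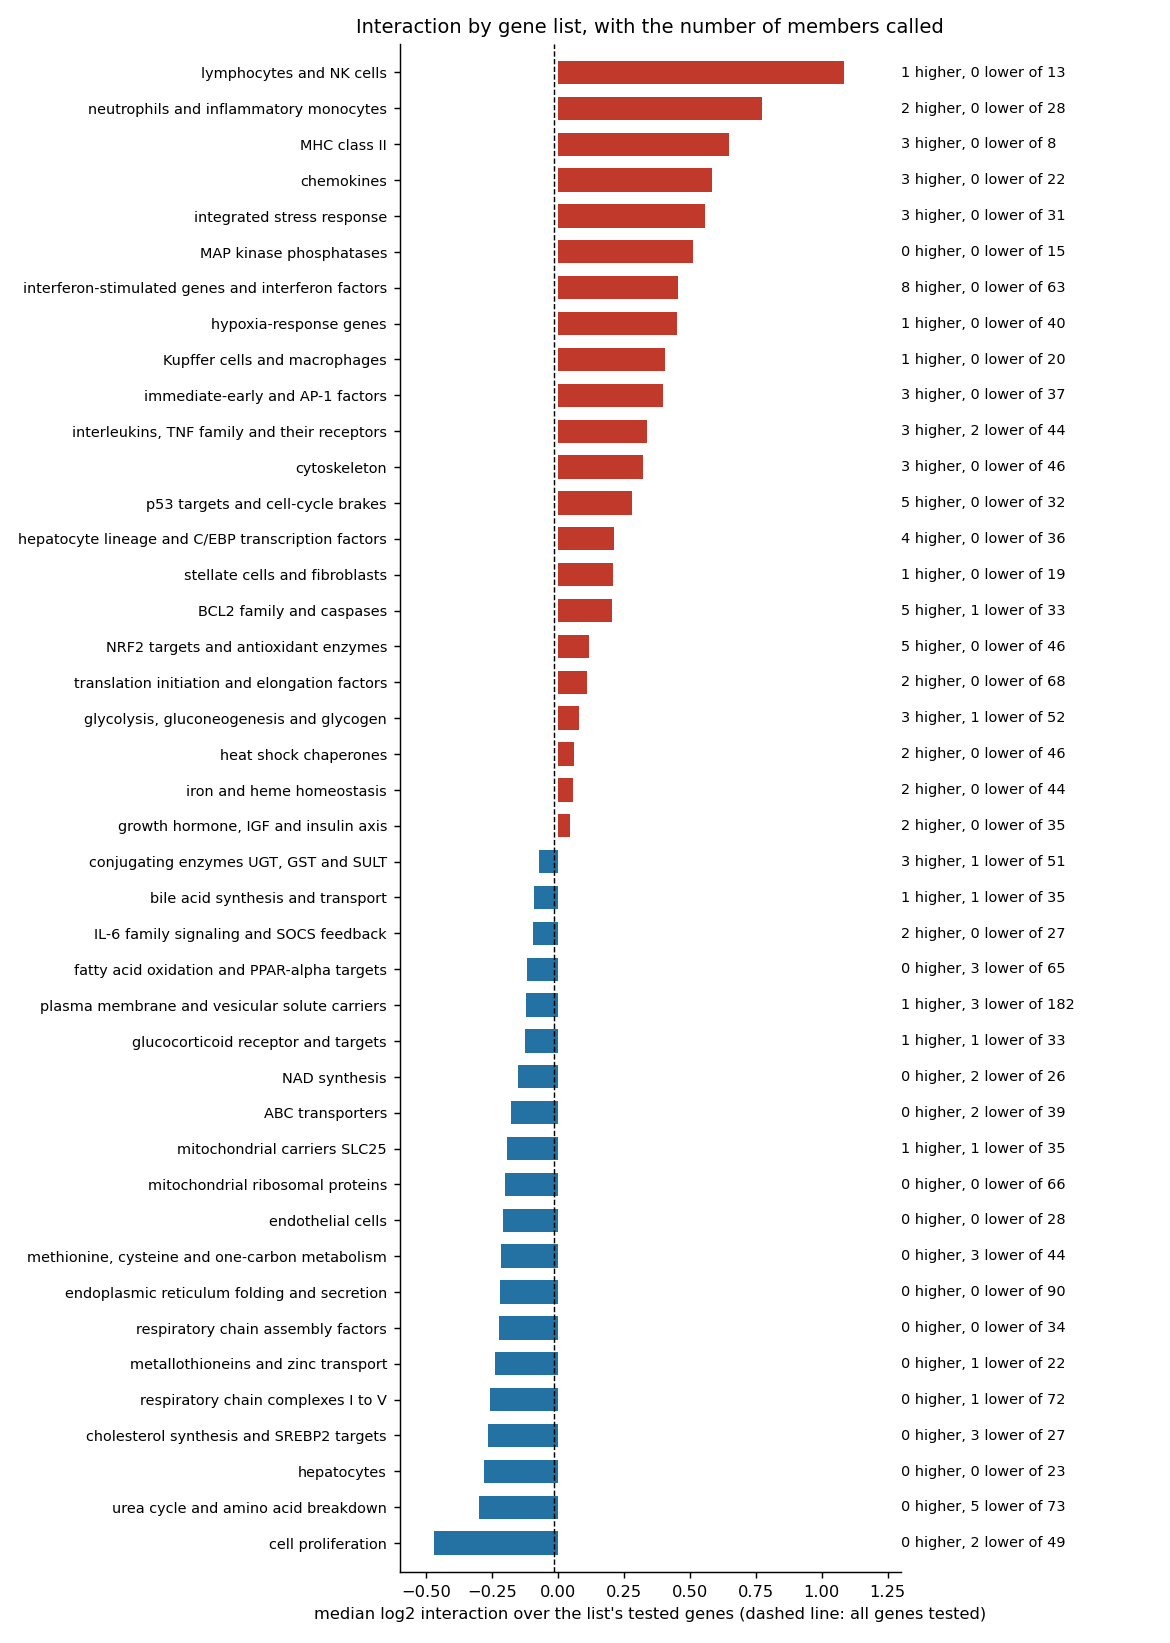
Median log2 interaction (x axis) of 42 gene lists with at least 8 tested members and either 2 called members or a median of at least 0.2 in size (brain tissue not drawn), with the number of members called beside each bar. The dashed line is the median of all genes tested. Lists of white blood cells, MHC class II, chemokines and the integrated stress response stand at the top. Cell proliferation, amino acid breakdown, hepatocytes, cholesterol synthesis and the respiratory chain stand at the bottom. IL-6 family signaling has a negative median (-0.10), and the NF-kB and positive acute-phase lists did not meet the rule for drawing.

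Some genes of heme and thiol defense rose in sepsis under isoflurane, and others fell under propofol. Of 46 tested NRF2 targets and antioxidant enzymes, 5 were called (10.9%, against 1.66% of all genes tested), all higher: Osgin1, Gclc, Nfe2l2, Hmox1 and Txnrd1. The list's median was 0.12 beside -0.02 over all genes, and was 0.08 without library 15. Hmox1, heme oxygenase 1, which breaks down heme, stood at 258, 296, 144 and 323 CPM in isoflurane control, 373, 1069.6, 2121 and 577 CPM in Isoflurane-Sepsis, 345, 591, 808 and 199.8 CPM in propofol control and 250.1, 331, 207 and 195 CPM in Propofol-Sepsis, given here and below in the order of library number. Isoflurane-Sepsis lay above isoflurane control in every library and library 3 reached the highest value of all, whereas the propofol groups overlapped. Its log2 interaction of 3.00 ± 0.68 (SE, adjusted p = 0.036) came from log2 responses of 2.03 under isoflurane (adjusted p = 0.00267) and -0.97 under propofol (adjusted p = 0.117). Osgin1, an oxidative stress-induced growth inhibitor, was found at 66.9, 63.4, 55.6 and 65.4 CPM in isoflurane control, 44.6, 118, 166 and 65.03 CPM in Isoflurane-Sepsis, 165, 234, 248 and 133 CPM in propofol control and 58.8, 63.1, 73.2 and 72.2 CPM in Propofol-Sepsis. Here propofol control lay above isoflurane control and Propofol-Sepsis in every library but overlapped with Isoflurane-Sepsis, and the isoflurane groups overlapped with each other. The interaction of Osgin1 was 2.19 ± 0.42 (SE, adjusted p = 0.0217) and was called in 16 of 16 fits with a library left out, that of Hmox1 in 5.

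Gclc, the catalytic subunit of the enzyme that makes the first step of glutathione synthesis, was at 39.7, 48.8, 44.4 and 49.7 CPM in isoflurane control, 28.8, 47.4, 58.2 and 41.7 CPM in Isoflurane-Sepsis, 119, 114, 163 and 94.9 CPM in propofol control and 54.8, 50.03, 43.5 and 43.3 CPM in Propofol-Sepsis, so that propofol control did not overlap with any other group. Its interaction was 1.31 ± 0.26 (SE, adjusted p = 0.0244) from responses of -0.04 under isoflurane (adjusted p = 0.866) and -1.35 under propofol (adjusted p = 5.57e-05). Nfe2l2, the gene for NRF2 itself, had an interaction of 0.79 ± 0.16 (SE, adjusted p = 0.0249), and its response was 0.30 under isoflurane and -0.49 under propofol. Txnrd1, thioredoxin reductase 1, was just inside the threshold (0.96, adjusted p = 0.0492) and was called in 2 of 16 fits. Tfrc, the transferrin receptor that brings iron into cells, had 1.26, adjusted p = 0.0463 and a response of 1.32 under isoflurane (adjusted p = 0.000183) and 0.06 under propofol (adjusted p = 0.858). The glutathione transferase Gstm4 fell under both anesthetics, by less under isoflurane (-0.36 against -1.06), and belongs to a family of similar genes between which reads may be split.

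Of 31 tested genes of the integrated stress response, in which phosphorylated eIF2 alpha raises ATF4 and its targets, 27 had a positive interaction. Higher calls were made for 3 of them (9.68%, against 1.66% of all genes tested). The list median of 0.56 lay at 0.39 to 0.62 with each library left out. The called members were Slc6a9, a glycine transporter, Ddit3, the transcription factor CHOP, and Trib3, a pseudokinase induced by ATF4 and CHOP. Ddit3 was at 10.7, 11.2, 11.02 and 13.1 CPM in isoflurane control, 22.95, 27.5, 48.3 and 23.6 CPM in Isoflurane-Sepsis, 14.5, 10.2, 10.6 and 12.6 CPM in propofol control and 13.2, 15.3, 15.7 and 14.6 CPM in Propofol-Sepsis. All Isoflurane-Sepsis libraries lay above all others, and the control groups overlapped, so the sepsis level carried its interaction of 1.11 ± 0.27 (SE, adjusted p = 0.0445). Trib3 was at 18.7, 16.1, 17.7 and 18.2 CPM in isoflurane control, 12.2, 22.9, 34.1 and 14.1 CPM in Isoflurane-Sepsis, 39.3, 38.9, 52.7 and 25.99 CPM in propofol control and 14.7, 14.6, 19.97 and 16.7 CPM in Propofol-Sepsis, and there propofol control stood above all Propofol-Sepsis libraries. Its interaction was 1.49 ± 0.37 (SE, adjusted p = 0.0448), with log2 responses of 0.25 under isoflurane (adjusted p = 0.445) and -1.24 under propofol (adjusted p = 0.00153). Trib3 was called in only 3 of 16 fits with a library left out, Ddit3 in 4 and Slc6a9 in 6. Without library 10 the interaction of Trib3 was 1.44 (adjusted p = 0.0529), no longer called.

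The Trib3 promoter is shown because it was the only promoter of the 3 called members in which the C/EBP-ATF response element bound by ATF4 and CHOP (written TGATGNAAN, both strands searched) was found in the 250 bases before the gene's start. This motif occurs in 3.25% of 27457 rat promoter windows of the same length. The sequence is that of RefSeq on GRCr8, chr3:161275534-161275783, minus strand, with the match, on the other strand, in capitals:
Trib3: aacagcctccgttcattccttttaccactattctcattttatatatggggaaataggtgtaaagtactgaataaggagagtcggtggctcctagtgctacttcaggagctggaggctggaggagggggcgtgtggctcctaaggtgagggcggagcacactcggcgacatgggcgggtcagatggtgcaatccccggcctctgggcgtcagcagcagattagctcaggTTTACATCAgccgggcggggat
A match is a description of the sequence and no evidence of binding in these livers. The antioxidant response element core TGACNNNGC (10.2% of promoter windows) was in none of the 4 called NRF2 list members with a window, and a sterol response element written TCACNCCAC (0.976%) in none of the 3 called cholesterol genes, which says only that these letters are not in these windows. A PU.1 site written GAGGAAGT (2.04%) was in 2 of the 12 called white blood cell genes with a window, Lpxn and Cyth4, not shown here. These motifs and the Y box below were all that were searched.

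Among p53 targets and cell-cycle brakes, 5 of 32 were called higher (15.6%, against 1.66% of all genes tested) and none lower, and the list median was 0.28. Aen, an exonuclease of apoptosis, was at 25.6, 23.6, 24.6 and 22.8 CPM in isoflurane control, 35.7, 52.1, 54.05 and 43.6 CPM in Isoflurane-Sepsis, 38.98, 31.05, 30.4 and 33.5 CPM in propofol control and 37.01, 35.02, 40.2 and 38.9 CPM in Propofol-Sepsis. Isoflurane control was the low group, below every other library, while the propofol groups overlapped. Its interaction was 0.77 ± 0.16 (SE, adjusted p = 0.0249). Mdm2, the ubiquitin ligase that limits p53, had 0.82, adjusted p = 0.0442, Plk2, a polo-like kinase, 1.99, adjusted p = 0.0286, Phlda3, a repressor of AKT, 1.36, adjusted p = 0.0403, and Ccng1, cyclin G1, 0.61, adjusted p = 0.0473. With a library left out, Aen was called in 12 of 16 fits, Plk2 in 8, Mdm2 in 5, Phlda3 in 4 and Ccng1 in 2. In 4 of these 5 genes the propofol response was not called, and Ccng1, which rose under both (log2 1.27 and 0.66), was the exception. Of 33 tested members of the BCL2 family and caspases 5 were called higher (15.2%), Casp4, Bcl2a1, Bcl2l13 and Casp12 among them. Cflar, an inhibitor of caspase 8, was called lower (-0.67, adjusted p = 0.0254).

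Nearly all markers of white blood cells had a positive interaction, though few were called. Ncf1, a subunit of the phagocyte NADPH oxidase, was at 3.06, 3.00, 2.75 and 2.63 CPM in isoflurane control, 7.29, 8.66, 10.2 and 11.01 CPM in Isoflurane-Sepsis, 6.68, 3.97, 5.32 and 5.41 CPM in propofol control and 5.96, 7.00, 7.81 and 6.94 CPM in Propofol-Sepsis. Spi1, which encodes the myeloid transcription factor PU.1, was at 3.15, 2.66, 2.43 and 3.09 CPM in isoflurane control, 7.39, 6.27, 8.90 and 10.1 CPM in Isoflurane-Sepsis, 6.03, 5.60, 4.55 and 5.07 CPM in propofol control and 6.70, 6.19, 7.00 and 6.72 CPM in Propofol-Sepsis. In both genes isoflurane control was the low group, below propofol control in every library, and the sepsis groups overlapped. The interactions were 1.33 ± 0.22 (SE, adjusted p = 0.0111) for Ncf1 and 1.20 ± 0.20 (SE, adjusted p = 0.0122) for Spi1, and both were called in 16 of 16 fits. Fermt3, kindlin-3, which activates integrins of blood cells, followed with 0.63, adjusted p = 0.0137. Over the marker lists, 26 of 28 tested genes of neutrophils and inflammatory monocytes, 19 of 20 of Kupffer cells and macrophages and 13 of 13 of lymphocytes and NK cells had a positive interaction, with medians of 0.77, 0.41 and 1.08. Only 2, 1 and 1 of them were called (7.14, 5 and 7.69%, against 1.66% of all genes tested called higher). The summed neutrophil and monocyte markers were 70.0 to 80.7 CPM in isoflurane control, 140 to 278 CPM in Isoflurane-Sepsis, 99.2 to 124 CPM in propofol control and 161 to 205 CPM in Propofol-Sepsis. The summed lymphocyte and NK cell markers were 26.4 to 31.7 CPM in isoflurane control, 36.4 to 63.7 CPM in Isoflurane-Sepsis, 45.3 to 53.8 CPM in propofol control and 37.6 to 48.1 CPM in Propofol-Sepsis, and those of Kupffer cells were 639 to 756, 829 to 1100.1, 740.5 to 814 and 773 to 910.1 CPM in the same order. Isoflurane control had the lowest range in all 3 lists, and it overlapped with propofol control for Kupffer cells only. Of the defining markers, Ly6c was at 0 in all libraries, Mpo and Elane reached at most 0.0589 and 0.0953 CPM, and Cd3e at most 0.412 CPM, while Clec4f of Kupffer cells was at 45.6 to 113 CPM. The part of such cells in the called genes was not tested. In liver RNA a change in the number of cells of a type and a change in RNA per cell cannot be told apart.

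Of 8 tested genes of antigen presentation by MHC class II 3 were called, all higher (37.5%, against 1.66% of all genes tested), and 7 had a positive interaction. Cd74, the invariant chain that guides class II molecules, was at 76.1, 70.8, 89.3 and 69.5 CPM in isoflurane control, 115, 125, 127 and 130.1 CPM in Isoflurane-Sepsis, 118, 100.03, 122 and 105 CPM in propofol control and 102, 97.96, 108 and 104 CPM in Propofol-Sepsis. Isoflurane control lay below every other library, and Isoflurane-Sepsis lay above Propofol-Sepsis without overlap. The interaction was 0.82 ± 0.12 (SE, adjusted p = 0.00739), from log2 responses of 0.72 under isoflurane (adjusted p = 7.71e-06) and -0.10 under propofol (adjusted p = 0.344). RT1-Ba and RT1-Da, the alpha chains of the rat class II molecules RT1-B and RT1-D, had interactions of 0.72 ± 0.13 (SE, adjusted p = 0.0183) and 0.70 ± 0.14 (SE, adjusted p = 0.022). The RT1 genes are a family of similar sequences, so reads may be split among them. The summed list was 149.9 to 189 CPM in isoflurane control and 213 to 253 CPM in propofol control, and came to 245 to 265 CPM in Isoflurane-Sepsis and 210.2 to 230.0 CPM in Propofol-Sepsis.

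The promoters of these alpha chains are shown because the genes moved together and share the Y box, a CCAAT-type element of class II promoters, written CTGATTGG and in capitals below. It is present in 3.26% of the promoter windows, and was not found in the window of Cd74. The sequences are the 250 bases before the start in RefSeq on GRCr8, both on the plus strand, chr20:4576807-4577056 for RT1-Ba and chr20:4515165-4515414 for RT1-Da:
RT1-Ba: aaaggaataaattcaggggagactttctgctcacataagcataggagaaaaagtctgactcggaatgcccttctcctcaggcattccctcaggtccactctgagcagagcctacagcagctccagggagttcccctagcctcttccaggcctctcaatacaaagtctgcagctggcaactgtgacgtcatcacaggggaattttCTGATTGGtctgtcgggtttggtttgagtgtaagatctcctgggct
RT1-Da: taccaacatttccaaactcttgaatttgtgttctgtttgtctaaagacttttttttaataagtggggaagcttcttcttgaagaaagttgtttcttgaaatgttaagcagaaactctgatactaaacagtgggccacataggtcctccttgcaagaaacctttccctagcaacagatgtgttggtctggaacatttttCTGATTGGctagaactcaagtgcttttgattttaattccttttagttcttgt
The Y box starts 46 bases before the start of RT1-Ba and 52 bases before that of RT1-Da.

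Of 22 tested chemokines 19 had a positive interaction and 3 were called higher (13.6%, against 1.66% of all genes tested). The median of 0.58 lay at 0.37 to 0.69 with each library left out, lowest without library 4. Cxcl16, a membrane-bound chemokine, was at 4.38, 4.97, 5.14 and 4.26 CPM in isoflurane control, 15.96, 16.4, 19.3 and 22.2 CPM in Isoflurane-Sepsis, 5.45, 5.08, 4.31 and 4.203 CPM in propofol control and 9.93, 12.5, 11.4 and 9.52 CPM in Propofol-Sepsis. It rose under both anesthetics, and Isoflurane-Sepsis lay above Propofol-Sepsis in every library. The interaction of Cxcl16 was 0.80 ± 0.19 (SE, adjusted p = 0.0425), called in 5 of 16 fits with a library left out. Ccl3, which attracts monocytes and neutrophils and was picked here for its size after its values were seen, rose by log2 5.06 and 3.18, and its sepsis groups overlapped while isoflurane control lay at 0.168 to 0.590 CPM and propofol control at 0.759 to 1.36 CPM. Il13ra1, a receptor chain for IL-13, had 0.51, adjusted p = 0.0292. The list of interleukins, TNF family and receptors had 3 called higher, Il13ra1, Tnf and Csf1, and 2 called lower, Il1rn and Il1r1, among 44. Of 63 interferon-stimulated genes and interferon factors 51 had a positive interaction and 8 were called higher (12.7%), none lower. Their median was 0.45, made of a median response of 0.14 under isoflurane and -0.25 under propofol. Irgm, an immunity-related GTPase, was at 7.96, 7.09, 7.47 and 8.04 CPM in isoflurane control, 7.88, 7.24, 7.29 and 10.9 CPM in Isoflurane-Sepsis, 10.7, 9.34, 9.63 and 10.1 CPM in propofol control and 6.24, 4.29, 6.30 and 5.99 CPM in Propofol-Sepsis. It fell under propofol (-0.80), and its isoflurane groups overlapped. Its interaction was 0.93 ± 0.19 (SE, adjusted p = 0.0268).

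Among transcription factors Klf16, a zinc finger protein, shared the smallest adjusted p of all genes with Tgm2 and RGD1311723. It was at 12.9, 15.5, 12.6 and 13.5 CPM in isoflurane control, 18.9, 27.1, 26.8 and 18.6 CPM in Isoflurane-Sepsis, 21.6, 20.02, 23.7 and 18.7 CPM in propofol control and 13.2, 14.2, 14.2 and 14.3 CPM in Propofol-Sepsis. Sepsis raised it under isoflurane and lowered it under propofol, without overlap in either arm, and its interaction of 1.34 ± 0.17 (SE, adjusted p = 0.00351) was split between the levels. Tgm2, tissue transglutaminase, which cross-links proteins, was at 126, 134, 106 and 148 CPM in isoflurane control, 330.3, 413, 544 and 418 CPM in Isoflurane-Sepsis, 199.96, 169.9, 198 and 176 CPM in propofol control and 199.6, 207, 257 and 191 CPM in Propofol-Sepsis, with Isoflurane-Sepsis above every other library, and had responses of 1.74 under isoflurane (adjusted p = 3.51e-07) and 0.21 under propofol (adjusted p = 0.237) and an interaction of 1.53 ± 0.20 (SE, adjusted p = 0.00351). Of 37 immediate-early and AP-1 factors 27 had a positive interaction and Myc, Rhob and Sik1 were called. Myc was at 34.8, 33.8, 31.5 and 32.5 CPM in isoflurane control, 64.2, 81.7, 156 and 54.5 CPM in Isoflurane-Sepsis, 55.1, 71.8, 124 and 26.6 CPM in propofol control and 44.7, 42.4, 52.7 and 45.4 CPM in Propofol-Sepsis and its interaction was 2.01 ± 0.51 (SE, adjusted p = 0.0473), called in 3 of 16 fits. Cebpa, a factor of hepatocyte metabolism (1.22, adjusted p = 0.0366), and Id3, an inhibitor of helix-loop-helix factors (0.81, adjusted p = 0.0292), were called among 36 factors of hepatocyte lineage, 4 of which were higher and none lower.

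Of 29 tested genes of lipolysis and lipid droplets 1 was called, higher, and 17 had a positive and 12 a negative interaction (median 0.10, 0.06 to 0.15 with each library left out, lowest without library 15 and highest without library 1). Of 52 genes of glycolysis, gluconeogenesis and glycogen 3 were called higher and 1 lower (median 0.08, 0.01 to 0.13, lowest without library 3 and highest without library 10). G0s2, an inhibitor of the triglyceride lipase ATGL, was at 21.9, 14.6, 23.3 and 23.3 CPM in isoflurane control, 4.11, 19.8, 35.01 and 5.24 CPM in Isoflurane-Sepsis, 38.8, 61.3, 48.8 and 61.8 CPM in propofol control and 7.10, 3.00, 3.71 and 3.25 CPM in Propofol-Sepsis. Propofol control lay above every other library, and under propofol G0s2 fell by 3.65 on the log2 scale. Under isoflurane the groups overlapped and the sepsis libraries spread widely. Its interaction was 3.28 ± 0.70 (SE, adjusted p = 0.0298), called in 7 of 16 fits. Ppp1r3b, which brings protein phosphatase 1 to glycogen, was at 27.2, 29.5, 35.01 and 36.2 CPM in isoflurane control, 15.9, 30.3, 35.5 and 16.8 CPM in Isoflurane-Sepsis, 65.1, 63.7, 57.7 and 82.99 CPM in propofol control and 19.6, 12.96, 15.3 and 14.2 CPM in Propofol-Sepsis and also fell under propofol (-2.11), while the change under isoflurane did not pass the test (-0.37, adjusted p = 0.16). Its interaction of 1.74 ± 0.31 (SE, adjusted p = 0.0143) was called in 16 of 16 fits. Stbd1, a glycogen-binding protein, had 2.63, adjusted p = 0.0354, and was called in 6 of 16 fits. Arrdc3, an arrestin domain protein, had 3.45 ± 0.85 (SE, adjusted p = 0.0442) with overlap between all groups. Isoflurane-Sepsis library 3 was the highest of its group for Hmox1, G0s2, Myc, Stbd1, Arrdc3 and Tgm2. Without it the interaction was 2.38 for Hmox1 (adjusted p = 0.0625), 2.53 for G0s2 (0.0530), 1.60 for Myc (0.0846) and 2.39 for Arrdc3 (0.0694), all no longer called, while it was 1.40 for Tgm2 (0.00284) and 1.89 for Stbd1 (0.0401), which were still called.

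**Figure D4:**
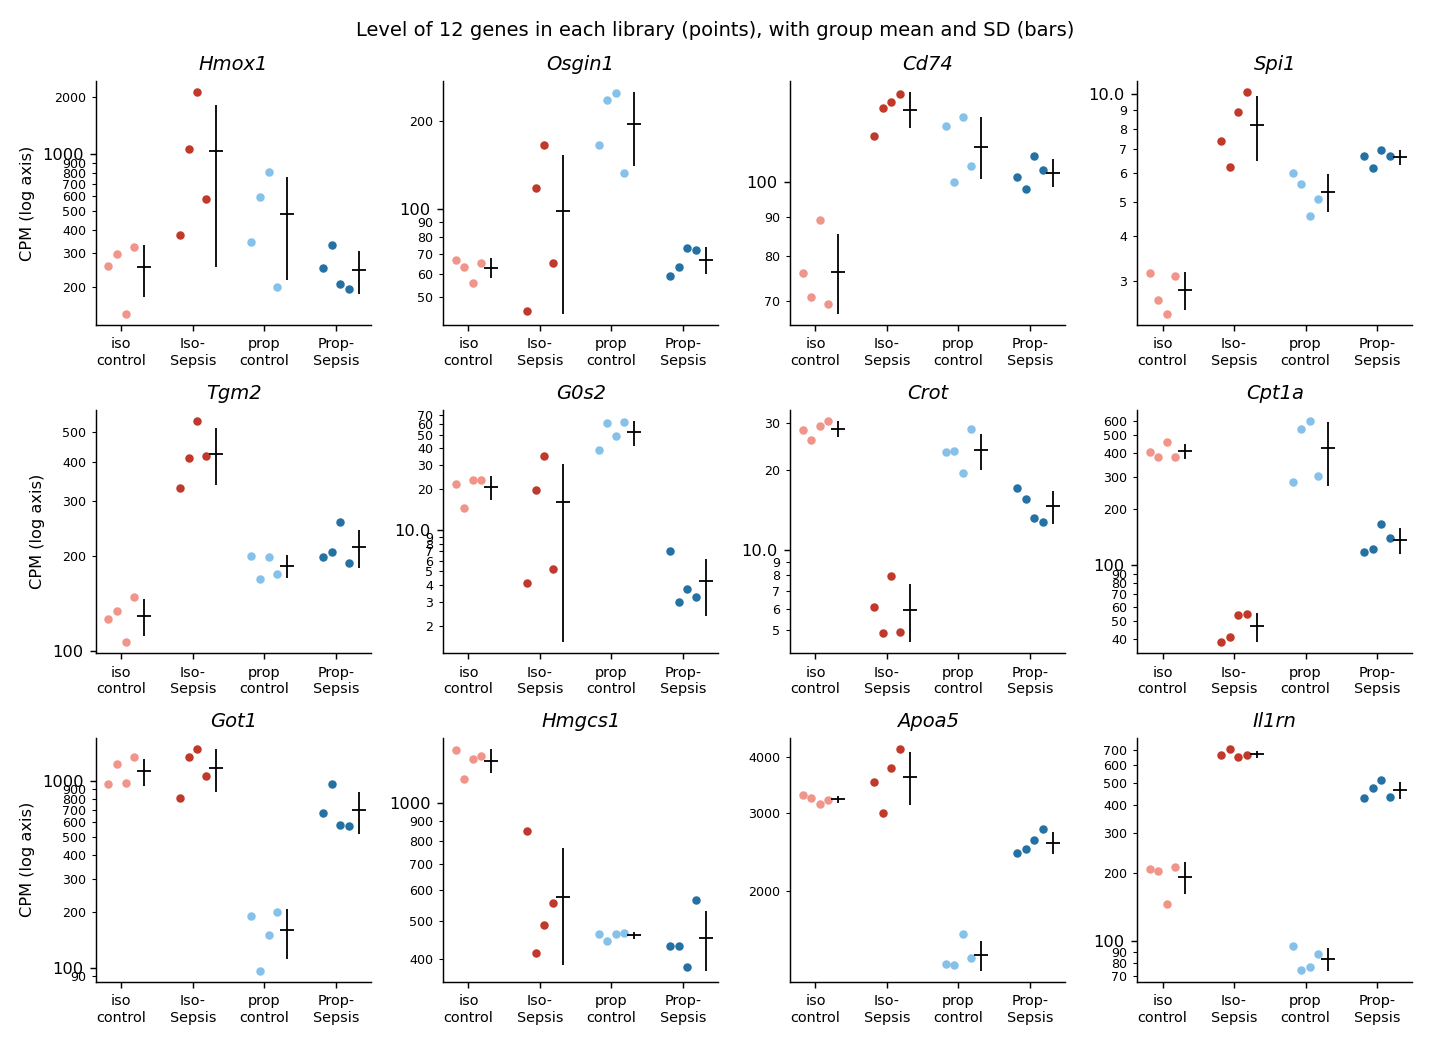
Level of 12 called genes in each of the 16 libraries (points, CPM on a log axis), with group means and SDs (bars), by group. Hmox1, Cd74, Spi1 and Tgm2 go up under isoflurane, Osgin1 and G0s2 go down under propofol, Crot, Cpt1a and Hmgcs1 go down more under isoflurane, and Got1, Apoa5 and Il1rn go up more under propofol.

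In the lower direction, Cpt1a and Crot of fatty acid transport fell further under isoflurane. Of 65 tested genes of fatty acid oxidation and PPAR-alpha targets 3 were called, all lower (4.62%, against 1.06% of all genes tested). A negative interaction was found in 42, with a list median of -0.12. Crot, the carnitine octanoyltransferase that exports shortened fatty acids from peroxisomes, was at 28.2, 25.8, 29.1 and 30.6 CPM in isoflurane control, 6.10, 4.85, 7.96 and 4.89 CPM in Isoflurane-Sepsis, 23.3, 23.4, 19.4 and 28.4 CPM in propofol control and 16.97, 15.4, 13.1 and 12.7 CPM in Propofol-Sepsis. Sepsis lowered it in both arms without overlap, and Isoflurane-Sepsis lay below every other library. Its interaction was -1.54 ± 0.21 (SE, adjusted p = 0.00545), called in 16 of 16 fits. Cpt1a, the gate of long-chain fatty acids into mitochondria, was at 409.5, 385, 462 and 384 CPM in isoflurane control, 38.7, 40.9, 54.05 and 54.7 CPM in Isoflurane-Sepsis, 280.2, 539, 601 and 301 CPM in propofol control and 118, 122, 167 and 139 CPM in Propofol-Sepsis. The log2 responses were -3.11 under isoflurane (adjusted p = 2.12e-07) and -1.65 under propofol (adjusted p = 4.15e-05). The control groups overlapped, and the interaction was -1.46 ± 0.30 (SE, adjusted p = 0.0268). Phyh, which starts the alpha-oxidation of branched fatty acids, was at 1946, 1934, 1988 and 1996 CPM in isoflurane control, 1816, 1918, 1781 and 1750.1 CPM in Isoflurane-Sepsis, 1050.3, 1118, 1252 and 1216 CPM in propofol control and 1718, 1666, 1406 and 1720.4 CPM in Propofol-Sepsis. Here propofol control was the low group, and the gene had an interaction of -0.60 ± 0.10 (SE, adjusted p = 0.0122). The peroxisomal membrane genes Pxmp4 and Slc25a17, the acyl-CoA synthetase Acsf2 and Prkaa2, a catalytic subunit of AMPK, made up the rest of the 7 genes of this function called lower. Among the genes called higher, 1 was also sorted to fatty acid oxidation and peroxisomes.

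Of 27 genes of cholesterol synthesis and SREBP2 targets 23 had a negative interaction, with a median of -0.27. All 3 called members were lower (11.1%, against 1.06% of all genes tested). Hmgcs1, the cytosolic HMG-CoA synthase, was at 1365, 1155, 1299 and 1319 CPM in isoflurane control, 849, 414, 489 and 555 CPM in Isoflurane-Sepsis, 464, 444, 464 and 467 CPM in propofol control and 432, 431, 382 and 565 CPM in Propofol-Sepsis. Isoflurane control lay above every other library, and the propofol groups overlapped. Its interaction was -1.13 ± 0.24 (SE, adjusted p = 0.0292), with differences between anesthetics of 1.49 at the control level (adjusted p = 6.26e-05) and 0.36 at the sepsis level (adjusted p = 0.101). Hmgcs1 was called in 6 of 16 fits with a library left out. Mvd, mevalonate diphosphate decarboxylase, was at 25.7, 24.6, 22.7 and 25.8 CPM in isoflurane control, 25.5, 15.8, 14.3 and 16.8 CPM in Isoflurane-Sepsis, 10.7, 8.87, 8.82 and 11.3 CPM in propofol control and 14.4, 15.4, 14.9 and 20.8 CPM in Propofol-Sepsis. In value Mvd fell under isoflurane, where sepsis library 1 lay within the control range, and it rose under propofol without overlap. Its interaction was -1.17 ± 0.23 (SE, adjusted p = 0.0233). Aacs, which activates acetoacetate for lipid synthesis, was at 36.6, 32.8, 33.1 and 33.2 CPM in isoflurane control, 41.5, 27.9, 23.997 and 28.7 CPM in Isoflurane-Sepsis, 7.199, 4.84, 8.10 and 7.54 CPM in propofol control and 17.4, 23.3, 14.4 and 20.6 CPM in Propofol-Sepsis, with propofol control as the low group and an interaction of -1.60 ± 0.26 (SE, adjusted p = 0.0106). Fads1, the delta-5 fatty acid desaturase, was carried instead by the sepsis level. It was at 92.2, 93.7, 90.7 and 94.6 CPM in isoflurane control, 37.9, 35.3, 33.2 and 29.7 CPM in Isoflurane-Sepsis, 75.2, 101, 100.4 and 90.3 CPM in propofol control and 74.4, 48.3, 48.99 and 55.2 CPM in Propofol-Sepsis, with Isoflurane-Sepsis below all other libraries. The interaction of Fads1 was -0.75 ± 0.18 (SE, adjusted p = 0.0403), called in 4 of 16 fits with a library left out. Apoa5, an apolipoprotein that lowers plasma triglycerides, was at 3281, 3235, 3137 and 3193 CPM in isoflurane control, 3514, 2996, 3771 and 4157 CPM in Isoflurane-Sepsis, 1374, 1370.3, 1606 and 1417 CPM in propofol control and 2433, 2488, 2605 and 2754 CPM in Propofol-Sepsis. It rose under propofol without overlap, the isoflurane groups overlapped, and the interaction was -0.66 ± 0.12 (SE, adjusted p = 0.0202).

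Of 73 tested genes of the urea cycle and amino acid breakdown 57 had a negative interaction. All 5 called members were lower (6.85%, against 1.06% of all genes tested). The median of -0.30 lay at -0.36 to -0.17 with each library left out, nearest to 0 without library 4. Got1, the cytosolic aspartate aminotransferase, was at 965, 1229, 975 and 1334 CPM in isoflurane control, 807, 1343, 1479 and 1058 CPM in Isoflurane-Sepsis, 190.4, 96.6, 149.8 and 199 CPM in propofol control and 676, 958, 584 and 570.3 CPM in Propofol-Sepsis. Propofol control lay far below the rest, and the isoflurane groups overlapped. Responses were 0.07 under isoflurane (adjusted p = 0.818) and 2.15 under propofol (adjusted p = 1.11e-05), and the interaction was -2.08 ± 0.33 (SE, adjusted p = 0.0106). Gpt2, the mitochondrial alanine aminotransferase, fell in both arms (-2.51 under isoflurane and -1.28 under propofol) and was carried by the sepsis level (-1.23, adjusted p = 0.0403). Nnmt, nicotinamide N-methyltransferase, was at 437, 469.9, 441 and 473 CPM in isoflurane control, 577, 654, 472 and 444 CPM in Isoflurane-Sepsis, 221, 181, 204 and 206 CPM in propofol control and 442, 421, 451 and 502 CPM in Propofol-Sepsis and rose under propofol, with an interaction of -0.92 ± 0.14 (SE, adjusted p = 0.0101). With it Mat1a, which makes S-adenosylmethionine (-0.58, adjusted p = 0.0286), and Cbs, cystathionine beta-synthase (-0.85, adjusted p = 0.036), were the called genes among 44 of methionine, cysteine and one-carbon metabolism.

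A few genes of inflammation were in the lower direction. Il1rn, the IL-1 receptor antagonist, was at 207, 205, 146 and 212 CPM in isoflurane control, 660.4, 704, 649 and 660.1 CPM in Isoflurane-Sepsis, 94.8, 74.4, 77.3 and 87.5 CPM in propofol control and 429, 472, 515 and 435 CPM in Propofol-Sepsis. Sepsis raised it in both arms without overlap, from a higher control level under isoflurane, and the smaller rise under isoflurane gave an interaction of -0.67 ± 0.16 (SE, adjusted p = 0.0387). It was the only called gene among 23 positive acute-phase proteins, whose median was 0.02. Agt, angiotensinogen, which the liver secretes and sepsis raised in both arms (log2 1.58 and 2.54), had -0.96, adjusted p = 0.0408, and was called in 5 of 16 fits. Fen1, a flap endonuclease of DNA replication, was with Kif20a called lower among 49 genes of cell proliferation (-0.76, adjusted p = 0.0202), whose list median was -0.47 (-0.73 to -0.31 with each library left out, nearest to 0 without library 2 and farthest without library 4). The epoxide hydrolase Ephx2 fell under isoflurane, from 9.01 to 15.3 CPM in control to 0.446 to 3.30 CPM in sepsis, while its response under propofol did not pass the test. It stood at 2.04 to 2.73 CPM in propofol control and 1.05 to 3.55 CPM in Propofol-Sepsis. Isoflurane control was thus the high group, the sepsis groups overlapped, and the control level carried the interaction. The interaction of Ephx2 was -2.61 ± 0.60 (SE, adjusted p = 0.0366), called in 3 of 16 fits. Sgk2, a kinase related to SGK1, had -2.18, adjusted p = 0.0249. Map1b, a microtubule-associated protein abundant in neurons, was at 23.6, 32.8, 17.6 and 15.2 CPM in isoflurane control, 10.6, 22.2, 15.3 and 5.18 CPM in Isoflurane-Sepsis, 14.5, 9.57, 10.98 and 13.04 CPM in propofol control and 54.8, 129, 46.5 and 54.7 CPM in Propofol-Sepsis. Library 10, which held brain RNA, was the highest, and without it the interaction was -2.85 (adjusted p = 0.0175) in place of -3.32. RGD1311723, a gene without a described role, was at 7.16, 4.67, 6.58 and 3.34 CPM in isoflurane control, 2.58, 2.39, 2.33 and 2.83 CPM in Isoflurane-Sepsis, 1.36, 1.11, 1.87 and 1.74 CPM in propofol control and 8.23, 5.05, 5.44 and 3.87 CPM in Propofol-Sepsis. It fell under isoflurane and rose under propofol without overlap in either arm, with an interaction of -2.95 ± 0.38 (SE, adjusted p = 0.00351).

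Other genes that the rule named have scattered roles. Plau, the urokinase plasminogen activator, was at 5.13, 4.48, 3.78 and 3.86 CPM in isoflurane control, 4.21, 3.81, 5.22 and 5.54 CPM in Isoflurane-Sepsis, 6.36, 5.95, 6.76 and 4.69 CPM in propofol control and 2.33, 2.29, 2.85 and 2.61 CPM in Propofol-Sepsis, with an interaction of 1.37 ± 0.22 (SE, adjusted p = 0.0106). Lrrc8d, a subunit of the volume-regulated anion channel, was at 13.6, 14.7, 15.3 and 15.2 CPM in isoflurane control, 12.8, 15.5, 23.7 and 21.6 CPM in Isoflurane-Sepsis, 35.2, 39.9, 47.7 and 30.05 CPM in propofol control and 18.8, 16.7, 18.2 and 17.7 CPM in Propofol-Sepsis and had 1.43 ± 0.23 (SE, adjusted p = 0.0111). In the lower direction, Fntb, the beta subunit of farnesyltransferase, was at 8.99, 8.86, 6.77 and 8.90 CPM in isoflurane control, 5.80, 6.14, 4.19 and 4.89 CPM in Isoflurane-Sepsis, 4.15, 3.91, 3.64 and 4.06 CPM in propofol control and 6.87, 7.67, 4.58 and 7.03 CPM in Propofol-Sepsis, with an interaction of -1.41 ± 0.23 (SE, adjusted p = 0.0106). Rapgef5, an exchange factor for Rap proteins, was at 23.4, 24.5, 28.01 and 23.6 CPM in isoflurane control, 32.2, 29.9, 30.9 and 28.7 CPM in Isoflurane-Sepsis, 17.1, 16.6, 19.5 and 16.9 CPM in propofol control and 38.7, 43.8, 34.7 and 37.2 CPM in Propofol-Sepsis and had -0.84 ± 0.12 (SE, adjusted p = 0.00739). Of these 4 genes, the control level carried Lrrc8d and Fntb, and both levels carried Plau and Rapgef5. The interactions of the remaining ones with the smallest p ranged from 0.62 for Gpr108, a membrane protein, to 1.43 for Pkdcc, a secreted kinase, in the higher direction. They were -1.14 for Tmem164, -0.49 for Spryd3 and -1.03 for Lrp2, the endocytic receptor megalin, in the lower.

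Of 72 respiratory chain subunits 66 had a negative interaction, with a median of -0.26, and 1 was called, Uqcrb of complex III (-0.40, adjusted p = 0.0436, called in 2 of 16 fits). That is 1.39% of the list, near the 1.06% of all genes tested that were called lower. The list's median difference, isoflurane minus propofol, was 0.29 at the control level and 0.05 at the sepsis level. By called responses, 42 of the 72 subunits fell and 0 rose under isoflurane, and 5 fell and 2 rose under propofol. Of 66 mitochondrial ribosomal proteins 59 had a negative value (median -0.20), as had 81 of 90 genes of endoplasmic reticulum folding and secretion (median -0.22, -0.12 without library 3), with no member called in either list. Mitochondrial protein import and quality control had 15 positive and 28 negative values (median -0.08, -0.13 to -0.04 with each library left out, nearest to 0 without library 12 and farthest without library 10). Mitochondrial biogenesis and dynamics had 11 positive and 15 negative (median -0.04, -0.09 to 0.01, lowest without library 2 and highest without library 4), and none was called in these lists. Ribosome biogenesis factors were positive in 76 of 91 (median 0.17) and cytosolic ribosomal proteins in 66 of 76 (median 0.13, none called), beside 5114 positive and 5507 negative values over all genes tested. Npm1 was the only called ribosome biogenesis factor, 1.1% of that list against 1.66% of all genes tested called higher. Genes of one list share libraries and vary together, so such counts of signs are a description. Hypoxia-response genes were positive in 35 of 40 (median 0.45, 0.15 to 0.59 with each library left out, lowest without library 3), with Hmox1 as their only called member. NF-kB subunits and feedback genes were balanced, 16 positive and 16 negative.

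To find which level carried an interaction, it was written as the difference between the anesthetics at the sepsis level minus that at the control level. A gene was assigned to the sepsis level where at least 0.667 of its interaction was found there, to the control level where at most 0.333 was, and to both levels in between. The sepsis level carried 102 of the 289 genes (35.3%, exact 95% binomial interval 29.8 to 41.1), the control level 101 (34.9%, 29.5 to 40.8) and both levels 86 (29.8%, 24.5 to 35.4). These intervals take genes as independent, which they are not. By tests of the levels, the difference was called at the sepsis level only in 119 genes, at the control level only in 111 and at both in 59, beside 38.6% of all genes tested called at the sepsis level and 26.3% at the control level. The shares moved with the libraries: without library 1 the sepsis level carried 57.8% of 1615 called genes, and without libraries 1 and 10 together 63.9% of 2174. For the 289 genes themselves, the assignment was the same in all 16 fits with a library left out in 226.

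**Figure D5:**
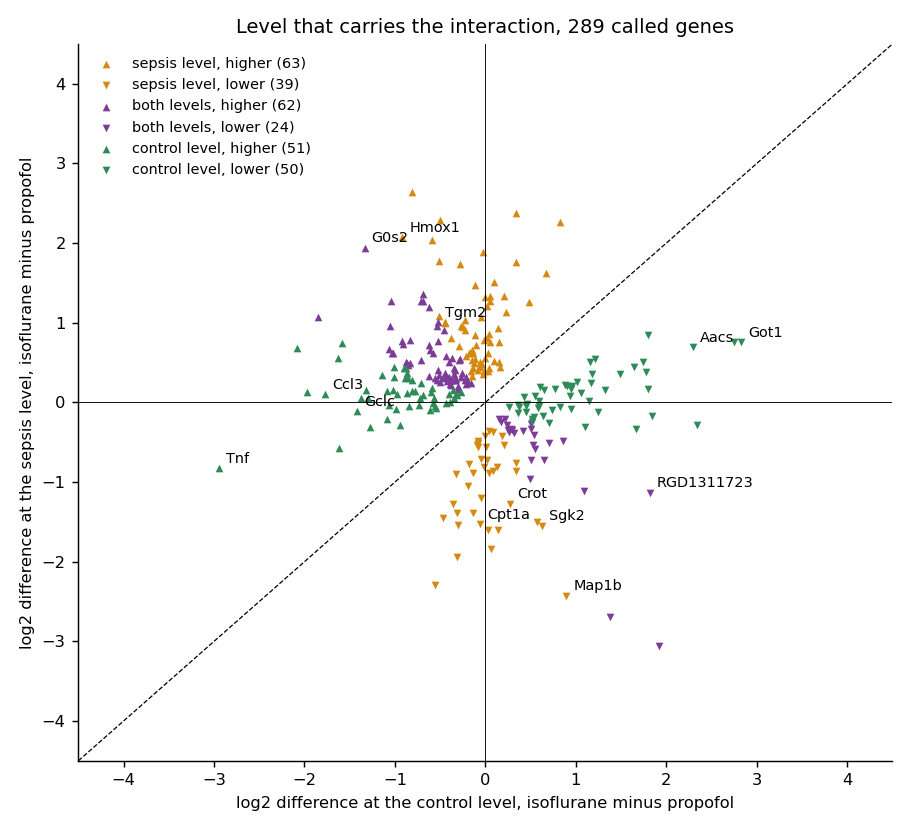
Log2 difference between isoflurane and propofol at the control level (x axis) and at the sepsis level (y axis) for the 289 called genes, with color for the level that carried the interaction and triangles up or down for its direction. On the dashed line the interaction is 0, and 1 gene lies outside the axes.

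Of the 176 higher genes, the sepsis level carried 63, both levels 62 and the control level 51. Of the 113 lower genes, the control level carried 50, the sepsis level 39 and both levels 24. With a single limit at a share of 0.5, the sepsis level carried 91 and the control level 85 of the higher genes, and 55 and 58 of the lower ones. The sign at each level followed the direction: 154 of the 176 higher genes were lower in isoflurane control than in propofol control in value, and 161 were higher in Isoflurane-Sepsis than in Propofol-Sepsis. Among the 113 lower genes, 92 were higher in isoflurane control and 85 lower in Isoflurane-Sepsis. Since each set was chosen by the difference of these 2 values, such signs describe the set and test nothing.

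Among the sorted genes higher under isoflurane, the sepsis level carried 10 of the 16 immediate-early genes and transcription factors, with Id3, Cebpa, Rhob and Sik1 among them, both levels 5 and the control level 1. Of the 18 white blood cell genes the control level carried 7, with Ncf1, Spi1, Fermt3, Cst7, Cyth4 and Rac2 among them, both levels 6 and the sepsis level 5. Of the 8 genes of cell death and the inflammasome the control level carried 5, Casp4, Bcl2a1, Panx1, Casp12 and Nlrp3, the sepsis level 2 and both levels 1. All 4 genes of antigen presentation, 4 of 5 p53 targets and 5 of 6 secreted proteases, inhibitors and transglutaminases belonged to both levels. Heme and thiol defense was split, with Hmox1, Nfe2l2, Mafg and Gsto1 at the sepsis level and Osgin1, Gclc, Txnrd1 and Ugdh at the control level. Among the lower genes, the sepsis level carried 5 and the control level 2 of 7 genes of fatty acid oxidation and peroxisomes. The control level carried 6 and the sepsis level 3 of 9 genes of amino acid, one-carbon and nicotinamide metabolism, and of 5 of sterol and fatty acid synthesis the control level carried 3, the sepsis level 1 and both levels 1. Both plasma protein genes belonged to the control level.

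The 23 hepatocyte markers summed to 216400 to 240760 CPM in the isoflurane libraries and to 183300 to 195920 CPM in the propofol libraries, in sepsis and control alike. Abundant transcripts such as Alb, at 54760 to 94731 CPM, weigh heavily in this sum. Gene by gene, 17 of the 23 markers had a negative and 6 a positive interaction. Their median was -0.28, and -0.13 without library 10, and none was called for the interaction. Markers of pancreas, intestine, muscle and fat stayed between 10.6 and 17.04 CPM in all libraries. Brain markers had a list median of -1.83 with library 10 and of -0.11 without it, and none of the 12 tested was called.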

How the data were processed

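RNA-seq of liver poly(A) RNA was single-end, from a strand-keeping kit. The submitters' processing notes name STAR and the rat build rn5, with counting program and annotation not given in the sources used here. The deposited values are raw read counts per gene symbol as the authors made them, of which count column 2 was used. The rows for reads outside genes (21.6 to 25.4% of counted reads) and ambiguous reads (1.07 to 1.35%) were left out. Libraries held 14199422 to 49937173 reads on genes. Genes with a count of 10 in enough libraries by the filterByExpr rule (total of at least 15) were tested with edgeR 4.0.16 (R 4.3.3): 1 quasi-likelihood fit over 4 group means, TMM scaling, contrasts for the interaction, both sepsis responses and both differences between anesthetics, and Benjamini-Hochberg adjustment over all genes tested at 0.05. Each adjusted p in the text is from this fit unless another is named, and changes are log2. CPM are counts scaled to the library's total on genes times its TMM factor. The groups come from the labels, and the 16 libraries carry unique numbers. All p-values measure the spread between pools of 3 rats. Replicate counts differed beyond counting noise in every pair (chi-square per degree of freedom of 3.02 or more).

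Named were, per direction, the 12 called genes with the smallest adjusted p, the 5 with the largest interaction and the 3 with the smallest adjusted p per carrying level, each with mean log2 CPM 1 or more, and the called gene with the smallest adjusted p of each list. The members, lists and motifs were chosen with earlier results of these data known, and the sorting of called genes by function was made after their values were seen. Alternatives were other scalings, filters, thresholds, DESeq2 1.42.0, limma-voom 3.58.1, thinning and leaving out each library. Promoters are from RefSeq on GRCr8. Some called genes are not reported here.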

Additional observations from a re-analysis of the deposited data

Results flagged for a closer look

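The sepsis response differed between the anesthetics by the interaction test in the 176 genes called higher and the 113 called lower under isoflurane. Among 256 groups of 4 libraries over 64 named genes, 14 held a library far from the other 3 by Dixon's test, near the number that chance gives at about 1 in 20 groups. Library 10 of Propofol-Sepsis was the far one for Map1b (129 CPM) and Irgm (4.29 CPM), and library 1 of Isoflurane-Sepsis for Taf1d (35.3 CPM) and Spryd3 (42.7 CPM). In isoflurane control, library 6 was far for G0s2 (14.6 CPM), library 7 for Fntb (6.77 CPM) and Il1rn (146 CPM), and library 5 for Aacs (36.6 CPM). In propofol control, library 15 was far for Rapgef5 (19.5 CPM) and Cnn3 (75.5 CPM), and library 16 for Socs2 (26.9 CPM). In Propofol-Sepsis, library 9 was far for Klf16 (13.2 CPM) and library 12 for Mvd (20.8 CPM), and in Isoflurane-Sepsis library 2 for Npm1 (339 CPM).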

How the results depend on the processing

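With 1 library left out, the higher genes numbered 29 (without library 12) to 865 (without library 1) and the lower ones 25 to 750, and the shares carried by the sepsis level ran from 22.2 to 57.8%, by both levels from 22.972 to 38.9% and by the control level from 19.3 to 42.1%. Without libraries 1 and 10, an alternative added after the data were seen, the counts were 1103 and 1071 and the shares 63.9, 20.7 and 15.5%. DESeq2 gave 506 higher and 341 lower (sepsis level 43.8%), limma-voom with library quality weights, also added, 677 and 566 (sepsis level 48.029%, both levels 20.998%), testing every gene with a count 101 and 67 (sepsis level 29.8%), and thinning to the shallowest library 114 and 71. At an adjusted p below 0.01, 5 higher and 4 lower were left, 22.2% at the sepsis level, 77.8% at both and 0% at the control level. Scaling by library totals alone put 29.2% at the sepsis level and 44.7% at the control level, and a single limit at a share of 0.5 gave 50.5 and 49.5%. The causes of these differences were not tested. The other scaling, limma-voom, robust edgeR and a CPM limit of 1 kept both counts within 1.5 times. Over the 64 genes named by the rule and the 16 fits with a library left out, the call was kept in 748 pairs of gene and fit. In the other 276 pairs the gene was no longer called. No paired analysis was possible because each library has its own number.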
